A study of Oryctolagus cuniculus with 27 samples.

Results

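The 7 genes described here set how fibrin is laid down and dissolved, and they were followed through rabbit aortic valve, ascending aorta and left ventricular myocardium. They are PLAUR, PLAU, PLAT, SERPINE2, F3, THBD and TFPI, taken by gene symbol from the full count tables. All 7 are listed among the 31346 genes of those tables. In the valve, PLAUR, which encodes the urokinase receptor, rose under a cholesterol and vitamin D2 diet between 2 and 4 weeks and was high in all 4 valves at 7 weeks. SERPINE2, which encodes protease nexin 1, was higher at 7 weeks than in control valves. F3, the tissue factor gene, and TFPI, which encodes its inhibitor, were both lower at 7 than at 2 weeks. In other fits, given below, the PLAUR rise from 2 to 4 weeks, the SERPINE2 difference and the TFPI fall did not always pass the test.

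Plasminogen activation turns the circulating zymogen plasminogen into plasmin, the protease that cleaves fibrin and activates other matrix proteases. Urokinase (PLAU) does this on the cell surface, where PLAUR holds it, tissue plasminogen activator (PLAT) does it mainly on fibrin, and serpins such as protease nexin 1 (SERPINE2) block both enzymes and thrombin. Coagulation starts when tissue factor (F3) meets factor VII, is held back by tissue factor pathway inhibitor (TFPI), and is damped by thrombomodulin (THBD), an endothelial protein that turns thrombin into an activator of protein C.

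The RNA came from 27 libraries of WT male New Zealand rabbits, a strain in which fat and vitamin D feeding is used to bring on early valve disease. Treated animals ate food with 1% cholesterol and 3500 IU ergocalciferol (vitamin D2) per kg per day, and controls ate normal chow. Valve groups were control and 2, 4 and 7 weeks of diet, with 4 libraries each, made from 1 cusp per animal after a rinse in heparinised saline. The ascending aorta had 3 control and 2 diet libraries and the left ventricular myocardium 3 of each, with no duration given in their titles. The control valves are described as pooled from 2 and 4 weeks, whereas their titles give 7 weeks for 3 and 2 weeks for 1, so the match in time between control and diet valves is uncertain. Animal numbers within library names show that 3 diet myocardium libraries share animals with the 7-week valve group, 2 control myocardium libraries with control valves and 1 diet aorta with a 2-week valve. The sequencing numbers in those names set the 7-week group apart from the other valve groups, and a run of its own cannot be told apart from the time on diet. Some of the numbers occur both in a valve and in an aorta or myocardium name, so those libraries were not all numbered together. Where valve is compared with aorta or myocardium, a run cannot be told apart from the tissue. The animals' age is not given in the labels.

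Library totals ran from 8458433 to 19998949 counts in valve, 11509598 to 16107404 in aorta and 13954419 to 17322360 in myocardium. Of all counts, RN18S, a ribosomal RNA gene, took 0.476 to 2.06% in control valves and 1.36 to 1.97% at 2 weeks. It took 0.282 to 0.516% at 4 weeks and 0.510 to 2.20% at 7 weeks. The 2-week and 4-week valves did not overlap in this share, and its part in the results was not tested. Levels are in CPM (counts-per-million, each count scaled to the total of its library), and they compare libraries for 1 gene, not genes with each other, since gene lengths are not in the tables. The valve counts behind a value ran from 13 to 316 reads for PLAUR and from 72 to 3622 reads for the other 6 genes. Fold changes are on the log2 scale with their standard error (SE), and a gene is called where edgeR's quasi-likelihood test gives a Benjamini-Hochberg adjusted p under 0.05 over all genes tested. Groups of 2 to 4 libraries can also separate by chance, and the share of all genes whose groups did not overlap was not counted.

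Marker genes of other cell types moved with the valve groups. Macrophage markers, 13 of the 14 listed being present in the tables, summed to 201 to 359 CPM in control valves, 129 to 299 CPM at 2 weeks, 399.55 to 1832 CPM at 4 weeks and 928 to 1341 CPM at 7 weeks. The 8 smooth muscle markers summed to 20234 to 36134 CPM in controls, 28777 to 44677 CPM at 2 weeks, 14123 to 28479 CPM at 4 weeks and 8888 to 14996 CPM at 7 weeks. Cardiomyocyte markers, 12 of 14 being present, summed to 8090 to 39254 CPM in controls and only 1186 to 5988 CPM at 2 weeks, with 2306 to 25772 CPM at 4 weeks and 8999.7 to 41317 CPM at 7 weeks. The 4 atrial muscle markers summed to 4.10 to 13.7 CPM in controls, 0.587 to 539 CPM at 2 weeks, 241 to 7584 CPM at 4 weeks and 444 to 4812 CPM at 7 weeks. Of these 4, 3 were called higher at 4 weeks and 4 at 7 weeks against control, with medians of 7.71 and 7.27, the largest medians among the marker lists. Erythroid markers summed to 644 to 1873 CPM in controls and 2205 to 5721 CPM at 7 weeks, and platelet markers to at most 9.22 CPM in any valve. In bulk RNA, fewer cells of a type and less RNA per cell cannot be told apart.

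PLAUR had the largest ratio of highest to lowest valve level among the 7 members. Control valves held 2.07, 2.11, 0.963 and 1.62 CPM, and valves after 2 weeks 1.70, 2.59, 1.11 and 4.00 CPM. After 4 weeks they were 10.4, 13.3, 18.8 and 3.85 CPM. After 7 weeks they were 15.6, 10.8, 14.9 and 12.1 CPM. All 4 valves at 7 weeks and 3 of the 4 at 4 weeks lay above every control and 2-week valve, while the fourth 4-week valve lay above every control and below the highest 2-week valve.

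**Figure D1:**
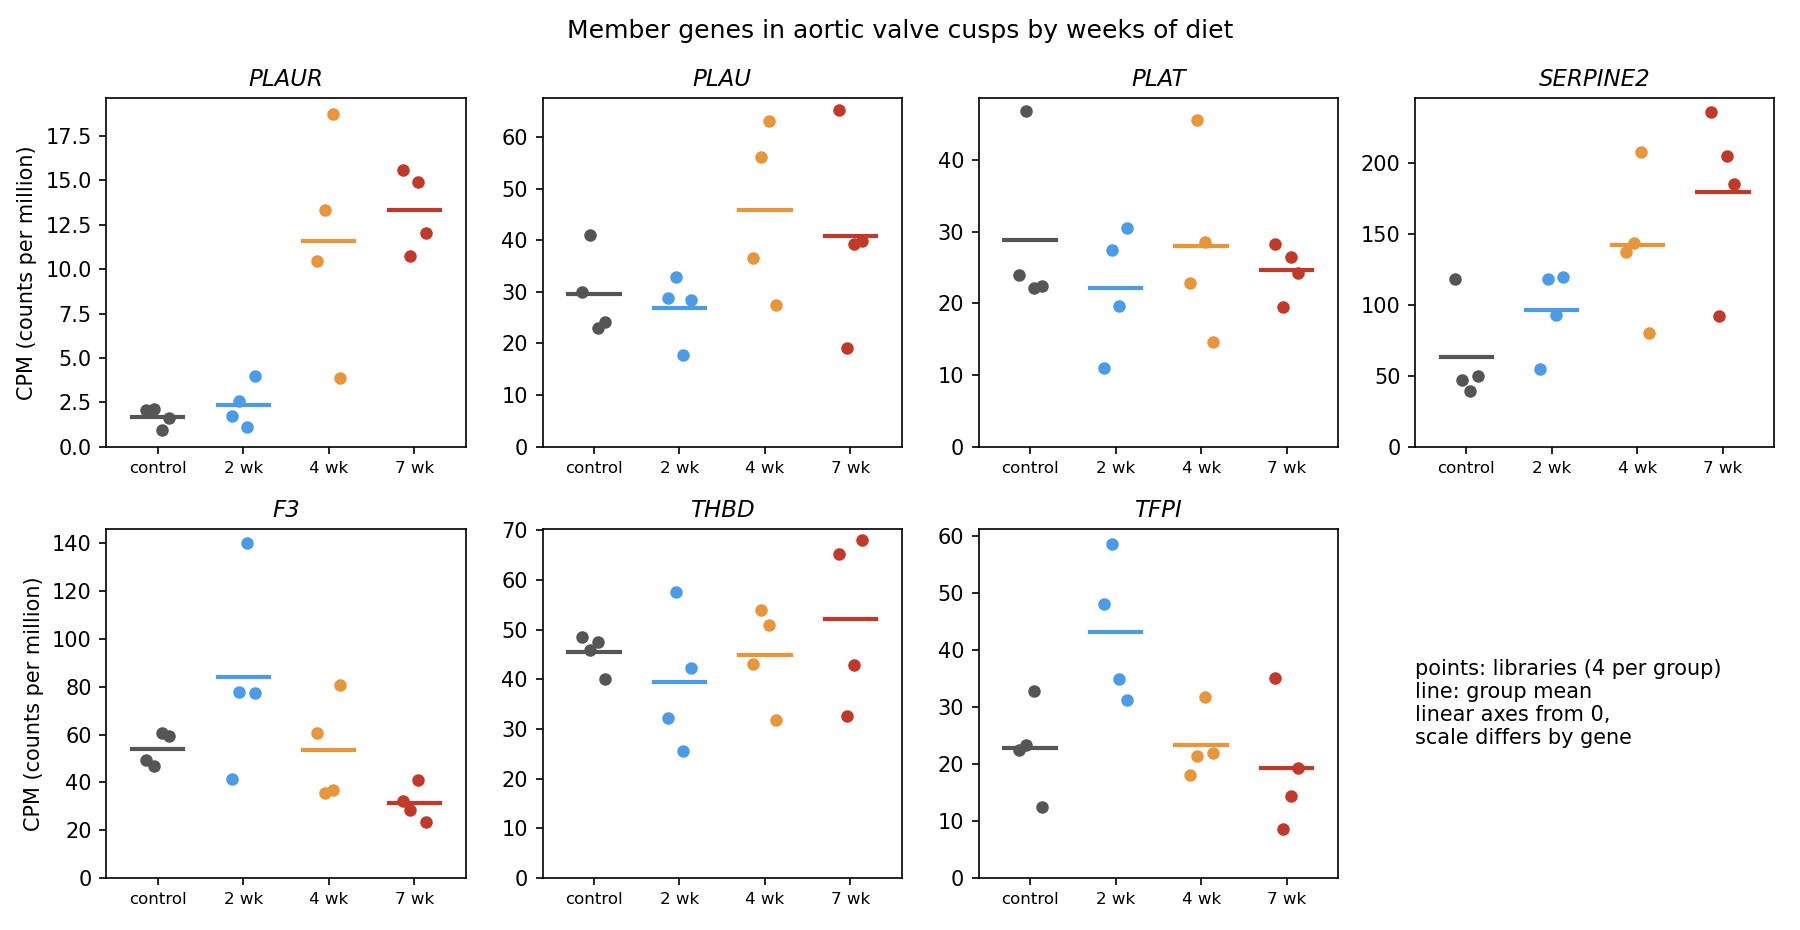
Level of each of the 7 genes in CPM (vertical axes, linear from 0, with a scale of its own for each gene) in the 4 valve groups, with 1 point per library and a line at the group mean. PLAUR is at or below 4.00 CPM in all control and 2-week valves and at 10.8 CPM or more in all 7-week valves, whereas PLAT and THBD overlap in all groups.

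PLAUR rose against control by 2.96 ± 0.42 (SE, n = 4 and 4) at 7 weeks, a 7.76-fold difference (edgeR adjusted p = 0.00357). At 4 weeks the difference from control was 2.60 ± 0.41 (adjusted p = 0.0192), and it lost its call in 4 of the 8 fits that left out 1 library, those without the third 4-week valve or without control valve 2, 3 or 4, with values from 2.30 to 2.88 over all 8. At 2 weeks it was 0.45 ± 0.41 and was not called (adjusted p = 0.660). From 2 to 4 weeks PLAUR rose by 2.14 ± 0.40 (adjusted p = 0.00971), and from 4 to 7 weeks the difference was 0.36 ± 0.38 (adjusted p = 0.696). Of these successive steps, the one from 2 to 4 weeks passed the test. In edgeR fits of 2 groups alone, the adjusted p was 0.105 for 4 weeks against control and 0.0643 for 4 against 2 weeks, with differences of 2.59 and 2.14. With the cardiomyocyte marker score of each library in the fit, the 4-week difference from control was 2.36 (adjusted p = 0.0648).

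The 4-week valve with the lowest PLAUR level, 3.85 CPM, was also the one with the lowest macrophage marker sum of its group, 399.55 CPM. The 4-week valve with the highest, 18.8 CPM, had the highest sum, 1832 CPM. Of the 13 macrophage markers, 11 were called higher at 4 weeks and 11 at 7 weeks against control, with medians of 2.13 and 2.42. PLAUR's changes of 2.60 and 2.96 were of that order. Markers of neutrophils, another cell type known to carry the receptor, summed to 0.512 to 3.11 CPM in control valves and 5.37 to 23.4 CPM at 7 weeks. Only 3 of them passed the filter on low counts, and all 3 were called higher at 7 weeks against control, with a median of 2.63, while none was called at 4 weeks. In the 4-week group, the valve with the highest PLAUR level had the lowest atrial muscle sum, 241 CPM. Over the 16 valve libraries, PLAUR had a Pearson r of 0.757 with atrial muscle markers (mean log2 CPM) and 0.97 with macrophage markers. After the group means were taken out these were 0.0985 and 0.87. The part of the macrophage, neutrophil and atrial muscle markers in the PLAUR result was not tested.

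**Figure D2:**
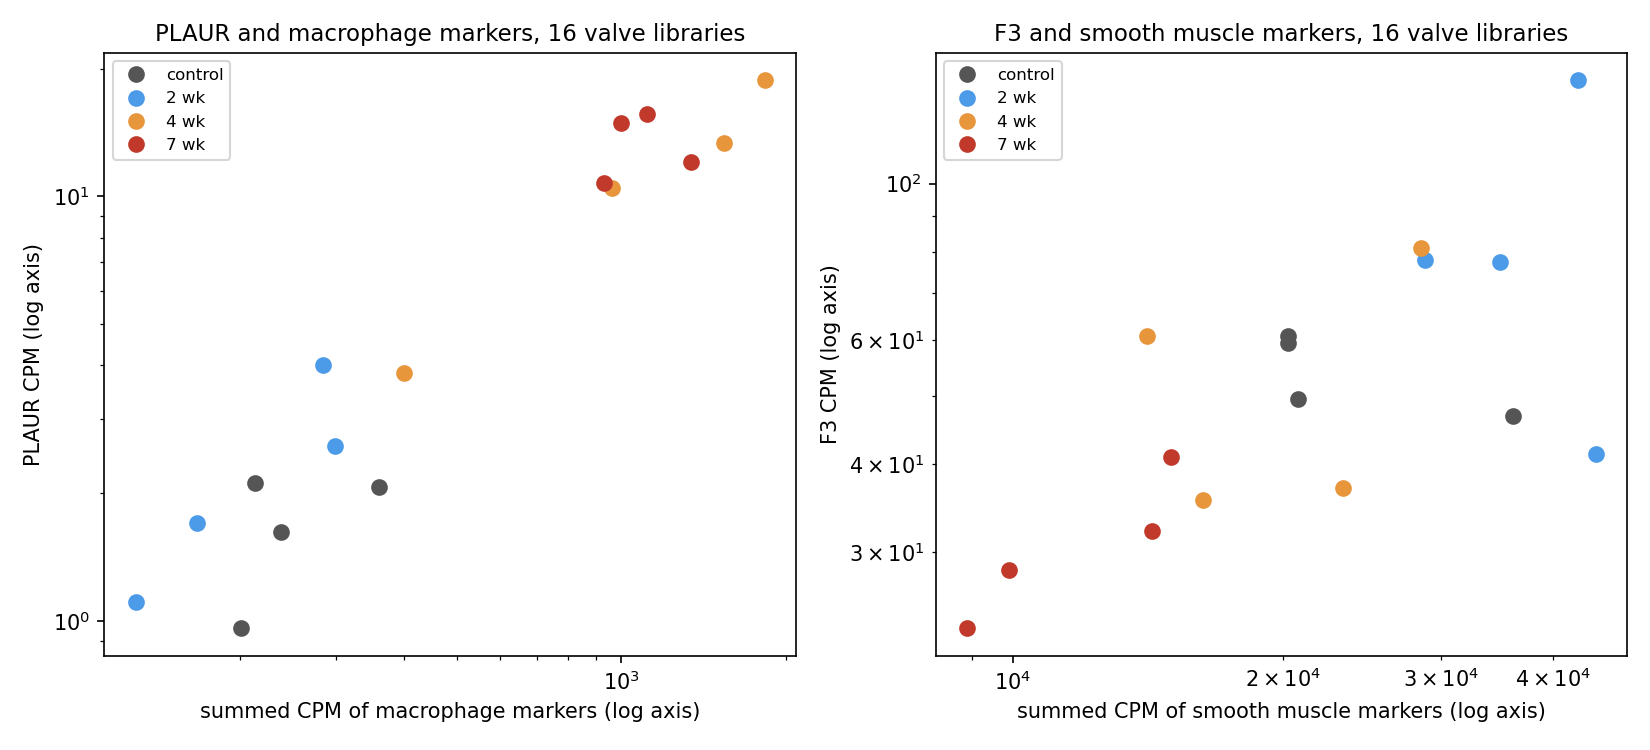
Left, PLAUR in CPM against the summed CPM of 13 macrophage markers, and right, F3 in CPM against the summed CPM of 8 smooth muscle markers, in the 16 valve libraries, on log axes and coloured by group. The libraries at 10.4 CPM of PLAUR or more, all of 4 or 7 weeks, have macrophage sums from 928 to 1832 CPM, and the 7-week libraries, low in F3, have smooth muscle sums of 8888 to 14996 CPM.

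The 2 activators did not pass the test at any time on diet. PLAU, the urokinase gene, read 29.9, 40.96, 23.0 and 24.1 CPM in control valves. At 4 weeks it read 36.6, 56.1, 63.0 and 27.5 CPM, and at 7 weeks 65.2, 19.0, 39.3 and 39.9 CPM. The groups overlapped, with the highest value at 7 weeks, 65.2 CPM, above all controls and the lowest, 19.0 CPM, below all of them.

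The PLAU differences from control were -0.15 ± 0.26 at 2 weeks (17.7 to 32.8 CPM), 0.47 ± 0.26 at 4 weeks and 0.42 ± 0.26 at 7 weeks, with adjusted p of 0.840, 0.501 and 0.332 by edgeR. Between 2 and 7 weeks the difference was 0.56 ± 0.26 (adjusted p = 0.118), and it became 0.73 (adjusted p = 0.0490) when the 7-week valve of 19.0 CPM, replicate 2, was left out. The receptor and its ligand thus differed in their test results, but the difference between them was not tested.

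PLAT, the tissue plasminogen activator gene, read 23.9, 46.8, 22.1 and 22.3 CPM in control valves and 28.3, 19.5, 26.4 and 24.3 CPM at 7 weeks. The 2-week valves read 10.99, 27.5, 19.6 and 30.5 CPM and the 4-week valves 22.8, 45.6, 28.6 and 14.6 CPM. All 4 groups overlapped. The differences from control were -0.40 ± 0.31, -0.21 ± 0.31 and -0.23 ± 0.31 at 2, 4 and 7 weeks, with adjusted p of 0.590, 0.855 and 0.668 by edgeR. Without control valve 2, at 46.8 CPM, the 4-week and 7-week differences turned to 0.07 and 0.04.

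SERPINE2 encodes an inhibitor that cells secrete and keep near their surface. Control valves read 118, 46.8, 39.5 and 49.7 CPM. Those at 2 weeks read 54.5, 118, 92.7 and 119.9 CPM, and those at 4 weeks 137, 144, 208 and 80.4 CPM. At 7 weeks the values were 236, 92.6, 205 and 186 CPM. Without the first control, which stood far from the other 3, every diet valve at any time was above every control valve; with it, 1 valve at 7 weeks, 1 at 4 weeks and 3 at 2 weeks lay below it.

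SERPINE2 rose against control by 1.45 ± 0.34 at 7 weeks, a 2.74-fold difference (edgeR adjusted p = 0.0200). The call was lost without the fourth 7-week valve or without control valve 2, 3 or 4, with adjusted p from 0.0527 to 0.0688 in those fits and differences from 1.298 to 1.88 in all 8 fits that left out 1 library. At 4 weeks the difference was 1.00 ± 0.34 (adjusted p = 0.163), and without control valve 1 it was 1.44 (adjusted p = 0.0200). At 2 weeks it was 0.58 ± 0.34 (adjusted p = 0.433). From 2 to 7 weeks it was 0.88 ± 0.34 (adjusted p = 0.0646 by edgeR, 0.0362 by DESeq2). Summed valve interstitial and fibroblast markers were 12673 to 21465 CPM in control valves, 19383 to 34762 CPM at 4 weeks and 9939 to 26480 CPM at 7 weeks. Over the 16 valve libraries SERPINE2 had a Pearson r of 0.69 with these markers (mean log2 CPM). With macrophage markers r was 0.794 and with smooth muscle markers -0.738. After the group means were taken out these were 0.864, 0.679 and -0.643. The part of any of these lists in the SERPINE2 result was not tested.

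Of the initiator and inhibitors of coagulation, F3 had its highest mean level at 2 weeks and its lowest at 7 weeks. Tissue factor transcripts read 49.4, 46.8, 60.7 and 59.3 CPM in control valves. At 2 weeks they read 41.3, 77.9, 140.1 and 77.5 CPM, and at 4 weeks 60.8, 35.5, 36.97 and 80.9 CPM. At 7 weeks they read 32.1, 28.3, 40.9 and 23.4 CPM. All 4 valves at 7 weeks lay below all 4 controls and all 4 valves at 2 weeks.

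F3 fell from 2 to 7 weeks by 1.45 on the log2 scale (SE 0.36, edgeR adjusted p = 0.00986), a 2.73-fold difference, and the call held in each of the 8 fits that left out 1 library, from -1.67 to -1.0045. Against control the difference was 0.62 ± 0.35 at 2 weeks (adjusted p = 0.407), -0.16 ± 0.35 at 4 weeks (adjusted p = 0.914) and -0.82 ± 0.35 at 7 weeks (adjusted p = 0.155). The last did not pass the test although the groups did not overlap. Of the 8 smooth muscle markers, 7 were called lower and 1 higher at 7 than at 2 weeks, with a median of -1.82, and F3's change was smaller than that median. Over the 16 valve libraries F3 had a Pearson r of 0.71 with smooth muscle markers (mean log2 CPM) and -0.752 with macrophage markers. After the group means were taken out these were 0.299 and -0.665. The part of either marker list in the F3 result was not tested.

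TFPI, the inhibitor that binds the tissue factor complex, read 22.4, 23.3, 32.7 and 12.4 CPM in control valves. At 2 weeks the values were 48.1, 58.6, 34.8 and 31.1 CPM, and at 4 weeks 18.1, 21.3, 31.6 and 21.9 CPM. At 7 weeks they were 35.1, 8.51, 14.4 and 19.3 CPM. The 2-week valves were the high group, yet the lowest of them lay within the range of controls and the first 7-week valve lay within theirs.

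TFPI fell from 2 to 7 weeks by 1.20 on the log2 scale (SE 0.32, edgeR adjusted p = 0.0142), a 2.30-fold difference. The call held in each fit that left out 1 library, from -1.56 to -1.03. It was lost when the cardiomyocyte marker score of each library was added to the fit, which gave -1.07 ± 0.43 (adjusted p = 0.199). F3 kept its call in the same fit at -1.98 ± 0.50 (adjusted p = 0.0484). In that fit the calls over all genes fell from 4261 to 443. Cardiomyocyte sums at 2 weeks, 1186 to 5988 CPM, did not overlap those at 7 weeks, 8999.7 to 41317 CPM. The part of cardiomyocyte content in the TFPI change thus cannot be told apart from the time on diet. The TFPI difference from control was 0.89 ± 0.32 at 2 weeks (adjusted p = 0.164), -0.14 ± 0.32 at 4 weeks (adjusted p = 0.917) and -0.31 ± 0.32 at 7 weeks (adjusted p = 0.570). From 2 to 4 weeks it was -1.03 ± 0.32 (adjusted p = 0.0783 by edgeR, 0.0240 by DESeq2).

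THBD, the thrombomodulin gene, read 48.6, 45.8, 47.5 and 40.1 CPM in controls and 65.2, 32.6, 42.9 and 68.1 CPM at 7 weeks. The 2-week valves ran from 25.5 to 57.7 CPM and the 4-week valves from 31.7 to 53.9 CPM. Controls were close together and each diet group spread around them. The differences from control were -0.25 ± 0.21, -0.19 ± 0.21 and 0.16 ± 0.21 at 2, 4 and 7 weeks, with adjusted p of 0.617, 0.796 and 0.661 by edgeR. Endothelial markers, all 12 being present, summed to 435 to 687 CPM in control and 641 to 1227 CPM in 7-week valves. Over the 16 valve libraries THBD had a Pearson r of 0.795 with endothelial markers (mean log2 CPM). With smooth muscle markers r was -0.67 and with macrophage markers 0.411. After the group means were taken out these were 0.726, -0.828 and 0.654. The part of any of these lists in the THBD values was not tested.

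The counts of members called stood against these backgrounds. At 2 weeks against control, edgeR called 0 of the 7 members, against 0.0250% of 15973 genes in either direction. TFPI alone had an unadjusted p under 0.05, beside 2622 of all genes. DESeq2 called 0 members, beside 965 genes. At 4 weeks 1 member was called higher, against 1.94% of genes. At 7 weeks 2 members were called higher, against 5.20%. From 2 to 4 weeks 1 member was called higher, against 3.14%, and 0 lower, against 1.23%. At an unadjusted p under 0.05 there were 4 members, beside 3147 of 15973 genes. DESeq2 called 2 members, beside 1507 of 15967 genes. From 4 to 7 weeks edgeR and DESeq2 called 0 of 7, against 0.100% of genes in either direction by edgeR and 208 genes by DESeq2. At an unadjusted p under 0.05 there were 0 members, beside 1921 of all genes. From 2 to 7 weeks 1 member was called higher, against 14.5%, and 2 lower, against 12.2%. The median over the members was 0.45, -0.14 and 0.16 at 2, 4 and 7 weeks against control, beside 0.02, -0.03 and -0.01 over all genes tested. The 3 comparisons against control share the 4 control valves.

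**Figure D3:**
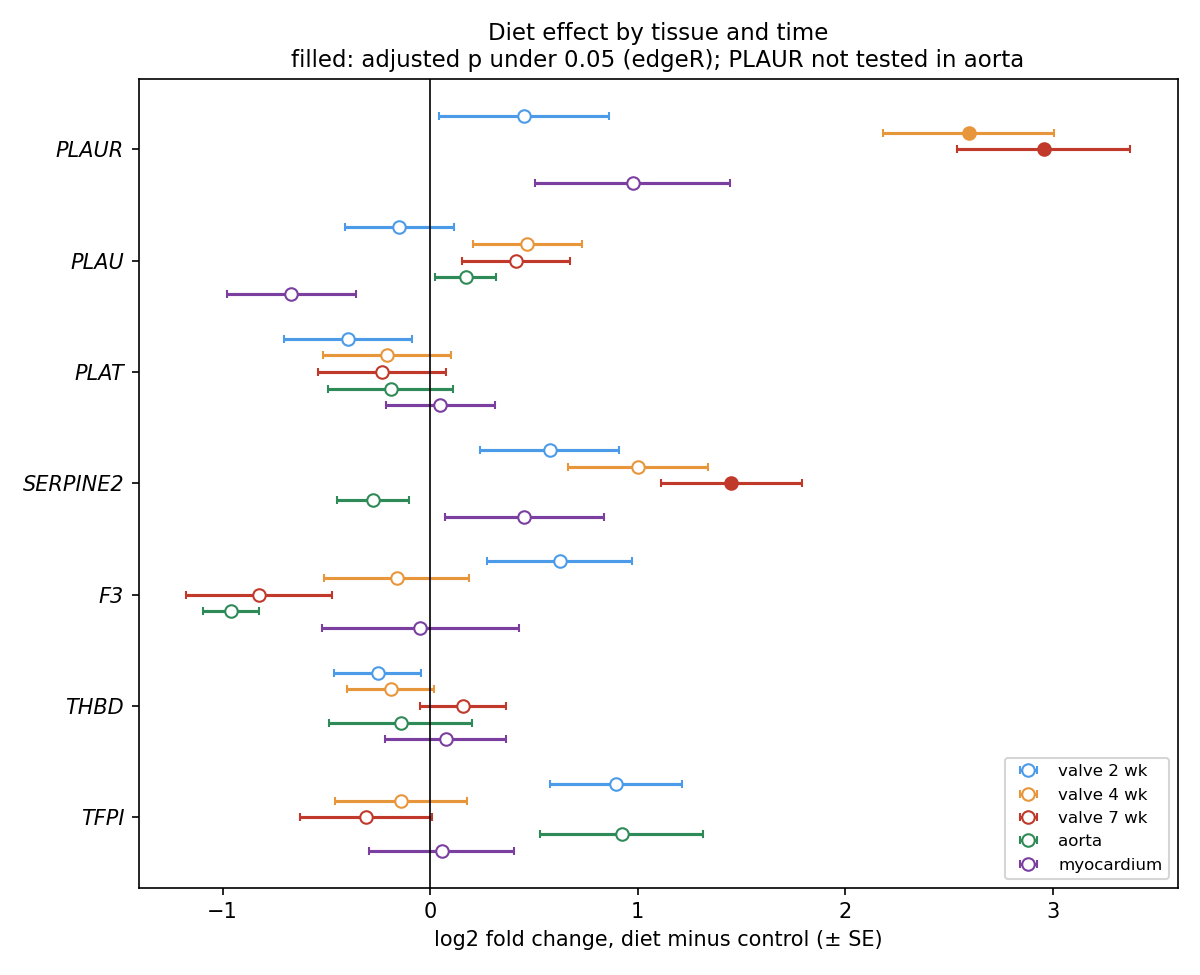
Log2 fold change of each gene, diet minus control (horizontal axis, bars ± SE of the edgeR fit), for the valve at 2, 4 and 7 weeks, the ascending aorta and the myocardium. Filled points mark an adjusted p under 0.05, which are PLAUR at 4 and 7 weeks and SERPINE2 at 7 weeks, and PLAUR was not tested in the aorta.

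In the ascending aorta on diet, 6 members passed the filter on low counts and edgeR called 0, against 0.159% of 14435 genes in either direction. By edgeR F3 alone had an unadjusted p under 0.05, beside 1768 of all genes. DESeq2 called F3, beside 408 genes in all. F3 read 30.2, 37.002 and 33.6 CPM in control aortas and 17.6 and 15.9 CPM in the 2 diet aortas. Both diet aortas lay below all 3 controls. The difference was -0.96 ± 0.14 (edgeR adjusted p = 0.0870, DESeq2 adjusted p = 8.77e-05), and without control aorta 2 it was -0.90 (edgeR adjusted p = 0.0461). TFPI went the other way in level, with 43.8, 44.0 and 15.97 CPM in controls and 65.3 and 60.9 CPM on diet, a difference of 0.92 ± 0.39 (adjusted p = 0.422). Smooth muscle markers summed to 52420 to 63117 CPM in control and 56433 to 61265 CPM in diet aortas, and cardiomyocyte markers to 465 to 655 CPM and 1268 to 1273 CPM. Atrial muscle markers summed to 0.782 to 1.99 CPM in control and 103 to 112 CPM in diet aortas, with 3 of 4 called higher and a median of 7.05. Their part in the F3 values was not tested.

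PLAUR was near the floor in the aorta. It read 0.261, 0.559 and 0.486 CPM in controls and 0.512 and 0 CPM on diet, and the count of 0 in that library allows up to 0.191 CPM, counting error only. Macrophage markers in the diet aortas summed to 81.3 and 83.3 CPM, below the 87.1 to 118 CPM of the controls. The remaining 4 members, PLAU, PLAT, SERPINE2 and THBD, differed by -0.27 to 0.17 between diet and control aorta, with none called.

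In the myocardium on diet, edgeR and DESeq2 each called 0 of the 7 members. Over all genes edgeR called 0.0848% of 14151 in either direction, and DESeq2 called 308 genes. At an unadjusted p under 0.05 there were 0 members, beside 1252 of all genes. PLAUR read 0.358, 0.403 and 0.646 CPM in control and 0.750, 1.13 and 0.685 CPM in diet myocardium. These values came from 5, 6 and 11 reads in control and 13, 16 and 11 reads in diet libraries. In CPM all diet libraries lay above all controls, and the difference was 0.98 ± 0.47 (edgeR adjusted p = 0.621). PLAU read 16.3, 14.8 and 26.3 CPM in control and 12.3, 13.3 and 6.78 CPM in diet myocardium. Here all diet libraries lay below all controls, with a difference of -0.67 ± 0.31 (adjusted p = 0.608).

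The test of the difference itself, the diet effect in 7-week valve minus that in myocardium, gave 1.98 ± 0.42 for PLAUR (edgeR adjusted p = 0.0580), short of the threshold. DESeq2 gave 1.98 (adjusted p = 0.0102) and limma voom with the animal as a random block 2.04 (adjusted p = 0.0430). PLAU gave 1.09 ± 0.41 (adjusted p = 0.265), and SERPINE2 gave 1.00 ± 0.54 (adjusted p = 0.434). In all, edgeR called 0 of 7 members, against 0.423% of 16068 genes in either direction. At an unadjusted p under 0.05 there were 2 members, beside 2201 of all genes. DESeq2 called 1 member, beside 548 genes in all.

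In control animals 6 of the 7 genes were called in at least 1 of the 3 comparisons between tissues. Of all 15281 genes, 22.2% were called between valve and aorta alone and 52.8% between aorta and myocardium alone. The share of all genes called in any of the 3 was not counted. F3 is among the 6 only by its call between aorta and myocardium, which was lost in several other fits. PLAT was higher in every control valve than in any aorta or myocardium library, at 22.1 to 46.8 CPM in valve, 4.62 to 9.19 CPM in aorta and 4.83 to 9.99 CPM in myocardium. The valve exceeded the others by 1.85 ± 0.32 against aorta (edgeR adjusted p = 0.00420) and by 1.65 ± 0.32 against myocardium (adjusted p = 0.00222). The difference of aorta minus myocardium was not called, at -0.20 ± 0.33 (adjusted p = 0.640).

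**Figure D4:**
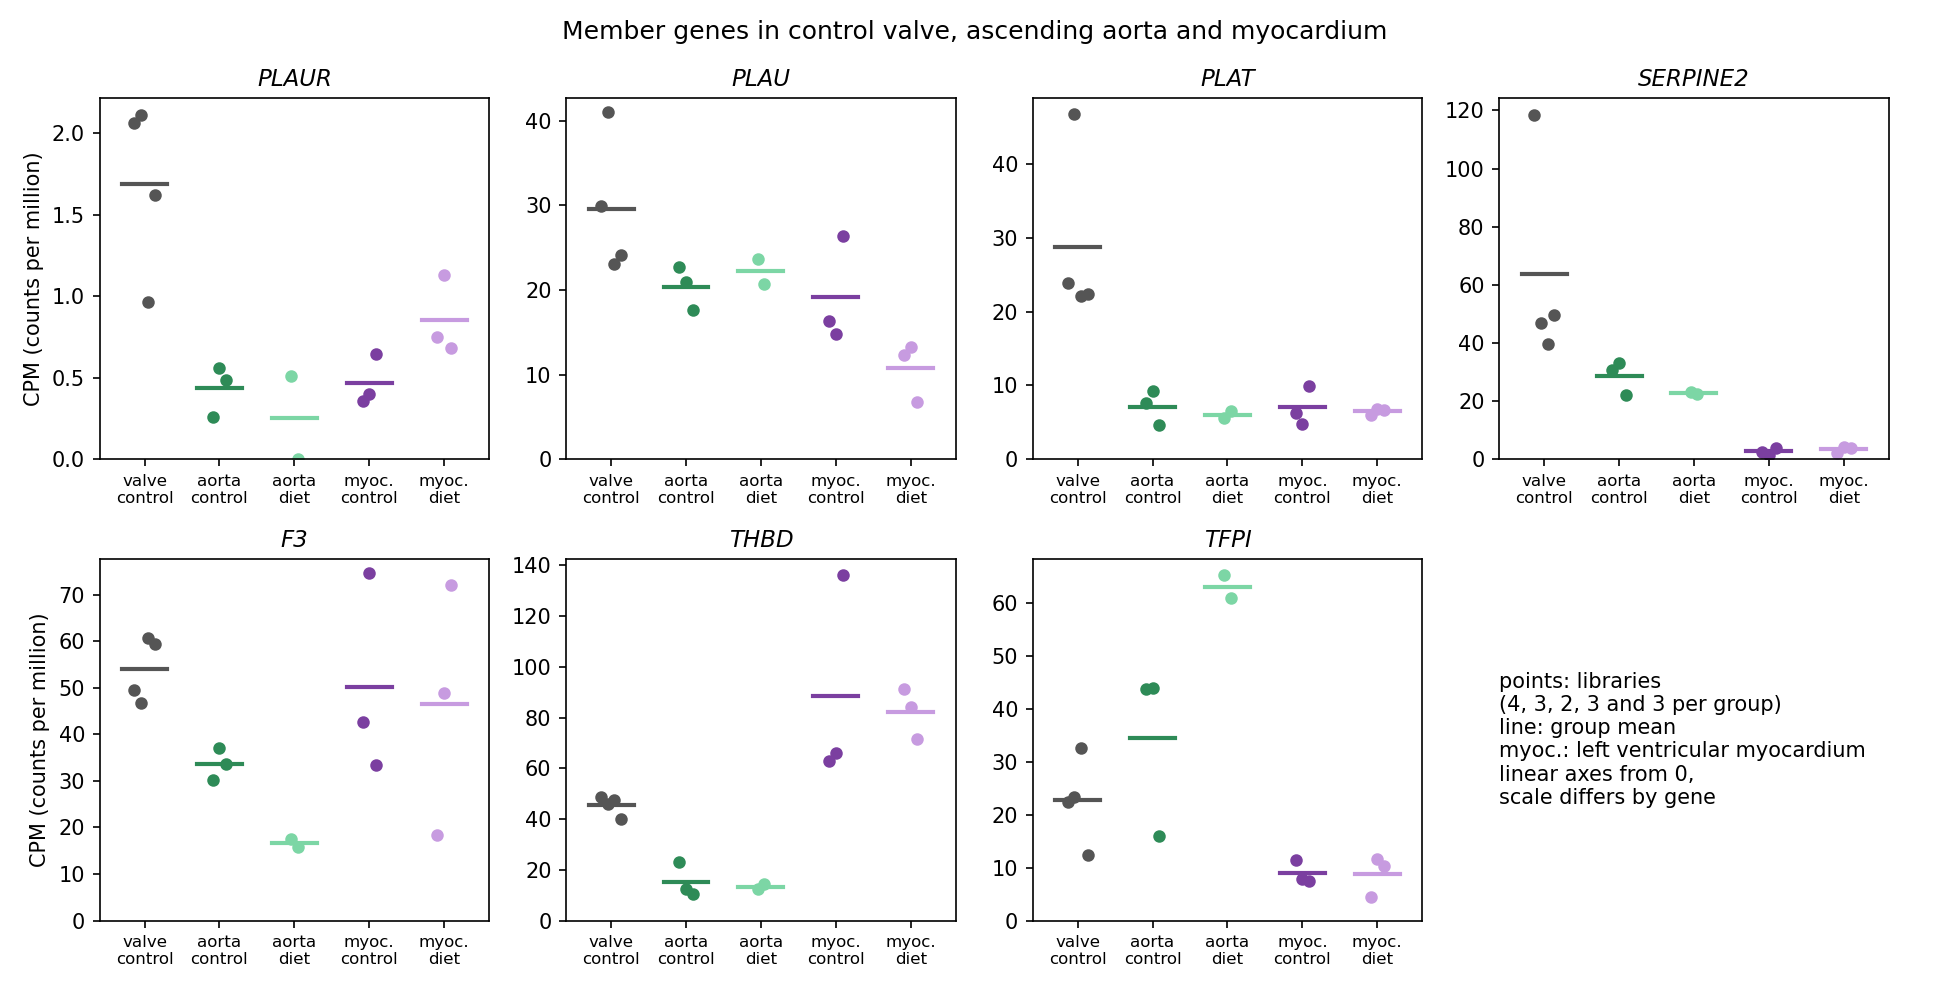
Level of each of the 7 genes in CPM (vertical axes, linear from 0, with a scale of its own for each gene) in control valve, control and diet ascending aorta, and control and diet left ventricular myocardium, with 1 point per library and a line at the group mean. PLAT is at 22.1 CPM or more in each control valve and below 10 CPM in every aorta and myocardium library, and SERPINE2 is at or below 4.09 CPM in all myocardium libraries.

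SERPINE2 was ordered valve, aorta, myocardium by mean level, with 63.6 ± 36.8 CPM (SD, n = 4), 28.6 ± 5.72 CPM (SD, n = 3) and 2.71 ± 1.17 CPM (SD, n = 3). The valve exceeded the myocardium by 4.18 ± 0.44, an 18.1-fold difference (edgeR adjusted p = 7.63e-05), and the aorta exceeded it by 3.17 ± 0.44 (adjusted p = 0.000168). Valve and aorta were neighbours in this order whose difference, 1.01 ± 0.37, missed the threshold with edgeR (adjusted p = 0.0752) and passed it with DESeq2 (adjusted p = 0.0345).

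THBD had another order, with the myocardium highest. It read 62.7, 66.2 and 136 CPM in control myocardium, 40.1 to 48.6 CPM in valve and 23.1, 12.3 and 10.6 CPM in aorta, with no overlap between tissues. The valve exceeded the aorta by 1.44 ± 0.30 (edgeR adjusted p = 0.00801) while valve minus myocardium was -1.30 ± 0.28 (adjusted p = 0.00376) and aorta minus myocardium -2.74 ± 0.32 (adjusted p = 5.67e-05). Endothelial markers had the same order of tissues, with sums of 969 to 1865 CPM in myocardium, 435 to 687 CPM in valve and 229 to 498 CPM in aorta, and their part in the THBD order was not tested.

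TFPI was highest in control aorta, at 34.6 ± 16.1 CPM (SD, n = 3), followed by valve at 22.7 ± 8.30 CPM (SD, n = 4) and myocardium at 8.91 ± 2.22 CPM (SD, n = 3). The aorta exceeded the myocardium by 1.69 ± 0.43 (edgeR adjusted p = 0.00727). The difference of valve minus aorta, -0.74 ± 0.39, was not called (adjusted p = 0.196). Valve minus myocardium gave 0.96 ± 0.41 (adjusted p = 0.0757), which was called without control valve 4 (1.12, adjusted p = 0.0469).

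PLAUR was low in all control tissues, yet higher in valve than in aorta by 1.77 ± 0.44 (edgeR adjusted p = 0.0172) and than in myocardium by 1.45 ± 0.43 (adjusted p = 0.0179). These calls were lost without control aorta 1 (1.55, adjusted p = 0.0618), and without myocardium control 1 or 2 (1.298 and 1.35, adjusted p = 0.0730 and 0.0674). F3 was close in valve and myocardium, at 54.1 ± 6.98 CPM (SD, n = 4) and 50.2 ± 21.6 CPM (SD, n = 3), and lower in aorta, at 33.6 ± 3.38 CPM (SD, n = 3). The aorta minus myocardium difference of -0.85 ± 0.31 (adjusted p = 0.0382) was lost in 4 of 6 fits that left out 1 library, namely any 1 control aorta or myocardium control 2, which took it to -0.47, and in the 2 groups alone (-0.91, adjusted p = 0.0557). PLAU differed by at most 0.38 ± 0.20 between any 2 control tissues, with none called.

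Between control valve and aorta 3 of 7 members were called, all higher in valve, against 22.2% of 15281 genes called in either direction. DESeq2 called 4 members, beside 4302 of 15257 genes. Against myocardium 3 were called higher in valve, with 23.4% of genes higher, and 1 lower, with 22.5% lower. Between aorta and myocardium 4 were called, 2 higher and 2 lower in aorta, against 52.8% of genes in either direction.

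Other genes of plasminogen activation and coagulation were counted from a list of 70, of which 60 are in the tables by symbol. In the valve fit 39 passed the filter on low counts. Of the genes that the liver expresses for the plasma, PLG, F2, F7, F9, F10, FGA, FGB and FGG did not pass it, and they are named for that, after their values were seen. PLG, the plasminogen gene, had a mean of 0.0163 CPM at 7 weeks and was listed at 0 in all 4 control valves. None of the list was called at 2 weeks against control by edgeR, with 8 at an unadjusted p under 0.05, beside 2622 of all 15973 genes. DESeq2 called 4 of the list, beside 965 of all genes. At 4 weeks 1 of the 39 was called higher and 0 lower, beside 1.94% of all genes higher, and at 7 weeks 4 higher and 0 lower, beside 5.20% higher. From 2 to 4 weeks 3 were called higher and 1 lower, beside 3.14% and 1.23% of all genes. From 4 to 7 weeks 0 were called by edgeR or DESeq2, with 4 at an unadjusted p under 0.05 beside 1921 of all genes. From 2 to 7 weeks 10 were called higher and 9 lower, beside 14.5% and 12.2%. Under diet in aorta and in myocardium edgeR called 0 of the list. There 10 and 12 had an unadjusted p under 0.05, beside 1768 of 14435 and 1252 of 14151 genes. DESeq2 called 4 in each, beside 408 and 308 of all genes. The list's medians against control were 0.19, 0.23 and 0.20 at 2, 4 and 7 weeks, beside 0.02, -0.03 and -0.01 over all genes.

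Of the other genes called against control, ITGAM, which encodes a leukocyte integrin chain that binds fibrinogen and PLAUR, differed by 3.22 ± 0.72 at 4 weeks (edgeR adjusted p = 0.0347) and 2.85 ± 0.71 at 7 weeks (adjusted p = 0.0271). TBXAS1, thromboxane synthase, differed by 1.86 ± 0.37 at 7 weeks (adjusted p = 0.0107), VWF, the von Willebrand factor gene, by 1.34 ± 0.37 (adjusted p = 0.0396), and KLF2, an endothelial transcription factor, by 0.63 ± 0.18 (adjusted p = 0.0430). Only TBXAS1 kept its 7-week call in all 8 fits that left out 1 library; ITGAM lost it without 7-week valve 4 or control valve 2, 3 or 4, VWF without any of 7-week valves 1, 2 and 4 or control valves 2, 3 and 4, and KLF2 in all but the fit without 7-week valve 1. At 4 weeks ITGAM lost its call without 4-week valve 2 or 3 or control valve 2, 3 or 4, with the cardiomyocyte score (adjusted p = 0.146) and in the 2 groups alone (adjusted p = 0.130). KLF2 also lost its call with no filter on low counts (adjusted p = 0.0725). VWF is also in the endothelial marker list.

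F5, coagulation factor V, was called higher at 4 than at 2 weeks (2.73 ± 0.74, edgeR adjusted p = 0.0482) and at 7 than at 2 weeks (3.39 ± 0.75, adjusted p = 0.00599). The first call was lost without any 1 of the 2-week valves or of the 4-week valves 1, 2 and 4, and in the 2 groups alone (adjusted p = 0.0607). Its mean was 182 CPM in control myocardium, 30.5 CPM in control valve, 2.19 CPM in 2-week valve and 0.914 CPM in control aorta. The median cardiomyocyte marker sum was lowest among valve groups at 2 weeks. With the cardiomyocyte score in the fit the F5 values were 0.98 (adjusted p = 0.427) and 0.77 (adjusted p = 0.524). In the same fit SERPINI1, PTGIS and ITGAV, 3 of the 9 genes of the list that fell from 2 to 7 weeks (-1.79, -1.11 and -1.08), were no longer called, with adjusted p from 0.256 to 0.484. Of the whole list, 19 genes were called from 2 to 7 weeks without the score and 2 with it. Over all genes these counts were 4261 and 443. Cardiomyocyte marker sums at 2 weeks did not overlap those at 7 weeks. Their part in the changes from 2 to 7 weeks, F5 included, cannot be told apart from the time on diet. Whether they had a part in the F5 change from 2 to 4 weeks was not tested further.

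Between control tissues, 8 of 38 tested list genes were called higher and 6 lower in valve than in aorta, beside 22.2% of all genes in either direction. F5 at 4.95 ± 0.79, THBS1 at 2.34 ± 0.54, PROCR, the endothelial protein C receptor gene, at 1.57 ± 0.21 and S100A10, whose protein with annexin A2 binds plasminogen, at 1.33 ± 0.27 led the higher side. Against myocardium 25 were higher in valve and 5 lower, beside 23.4% and 22.5% of all genes. This comparison had SERPINI1, the neuroserpin gene, at 6.18 ± 0.38 and NT5E, an ectonucleotidase gene, at 5.46 ± 0.39 leading, and F5 at -2.95 ± 0.60 lowest. Between aorta and myocardium 22 were higher in aorta and 9 lower, beside 52.8% of all genes in either direction.

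Ratios of counts within a library do not depend on the scaling of that library. They are given as a description, with no test. PLAUR counts per PLAU count ran from 0.0418 to 0.0691 in control valves, 0.0591 to 0.140 at 2 weeks, 0.140 to 0.298 at 4 weeks and 0.239 to 0.565 at 7 weeks. F3 per THBD count ran from 1.02 to 1.48 in controls, 1.29 to 5.49 at 2 weeks, 0.659 to 2.55 at 4 weeks and 0.343 to 0.955 at 7 weeks, so that all 7-week valves were below all controls. F3 per TFPI count ran from 1.86 to 4.77 in controls, 0.860 to 4.02 at 2 weeks and 0.915 to 3.32 at 7 weeks, with overlap throughout. In aorta F3 per TFPI was 0.691 to 2.11 in controls and 0.260 and 0.269 on diet.

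Genes with the pattern most like each member were sought among 10208 genes over the 16 valve libraries, by Pearson correlation of log2 CPM, as a description. For PLAUR these were ARPC1B, PTK2B and IRF5, with r of 0.98, 0.977 and 0.975 over libraries and 0.906, 0.845 and 0.891 after the group means were taken out. For SERPINE2 they were SPP1 (osteopontin), ACAN (aggrecan) and HHAT, with r of 0.934, 0.926 and 0.925, and 0.898, 0.806 and 0.878 within groups. TFPI had RNF2, KIF1B and SLC7A2 at 0.969, 0.949 and 0.949, and 0.939, 0.903 and 0.97 within groups. THBD had MMRN2, LAMB1 and TMTC2 at 0.906, 0.858 and 0.847, and 0.89, 0.924 and 0.804 within groups. F3 had ERBB2, NCAM1 and PPM1L at 0.871, 0.861 and 0.849, and 0.73, 0.788 and 0.667 within groups. PLAU had B4GALT1, SKAP2 and MAN1C1 at 0.907, 0.896 and 0.89, and 0.898, 0.851 and 0.887 within groups. PLAT had GFPT2, CMTM3 and PSMA2 at 0.848, 0.844 and 0.844, and 0.906, 0.891 and 0.862 within groups. By rank (Spearman rho) the PLAT values were 0.715, 0.794 and 0.459, so the match with PSMA2 was weaker by rank. The libraries share groups and scaling, and each gene was picked as the highest of many, so these values carry no p.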

How the data were processed

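RNA of 27 tissue samples was extracted with Trizol and sequenced as directional, single-end libraries, per the labels' protocols. The authors deposited estimated counts per gene in 1 table for each tissue and a second valve table of 31000 genes from which 346 had been taken out as myocardial, and 10.1% of the valve values are not whole numbers. Per the submitters' processing notes reads were handled with STAR 2.7.8a and RSEM 1.3.3, beside Trim Galore 0.6.6, FastQC 0.11.9 and edgeR 3.42.4. The sources used here do not give the genome build, annotation or strand setting, so no coordinates are printed, and reads from a gene and an antisense partner cannot be told apart.

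The deposited expected counts were rounded and fitted with edgeR 4.0.16 in R 4.3.3: genes were filtered by group (at least 10 counts, total at least 15) and scaled by TMM, with a two-sided quasi-likelihood F test, and Benjamini-Hochberg adjustment over all genes tested at 0.05. The 16 valve libraries shared 1 fit on the full table, the 5 aorta and 6 myocardium libraries had 1 each, the 10 control libraries 1, and the valve and myocardium interaction 1. The scripts were tested on simulated data. No 2 libraries held identical values. The labels say only that 1 cusp was taken per animal; for aorta and myocardium the spread between samples may hold technical parts.

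Alternatives were DESeq2 1.42.0, limma 3.58.1 voom with the animal as a random block, other size factors, no filter on low counts, the valve table without myocardial genes, a cardiomyocyte score as covariate, a replicate block, the 2 groups alone, and leaving out each library. The 7 members, the list of 70 other genes and the marker lists were chosen with earlier results of these data known. All 7 members are named. Of the other genes, up to 4 with the largest called change in each direction per comparison, with a mean of at least 1 CPM, could be named, and 1 of these is not reported here. Members' sequences were not used here.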

Additional observations from a re-analysis of the deposited data

Results flagged for a closer look

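A sample far from the other 3 of its group was looked for in the 28 combinations of member gene and group of 4 libraries, as a gap to the nearest sample past Dixon's 95% critical share of the group's range, which chance gives in about 1 of 20 groups. It was found in 2. PLAT read 46.8 CPM in control valve 2, against 23.9 CPM in the nearest control, with a gap of 0.927 of the range. Without that library the PLAT difference from control was 0.04 at 7 weeks and 0.07 at 4 weeks, and neither was called with or without it. SERPINE2 read 118 CPM in control valve 1, against 49.7 CPM in the nearest control, with a gap of 0.871 of the range. Without that library the SERPINE2 difference from control was 1.88 at 7 weeks, called as before, and 1.44 at 4 weeks, where it became called.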

How the results depend on the processing

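Over 1152 recomputed log2 fold changes of the 7 members, 22 lost a call, 13 gained one and 44 differed in sign, and no value that changed sign was called under either setting. The replicate numbers of the 3 valve diet groups did not pair the libraries, with r from -0.34 to 0.119 between same-numbered ones, and control valves were not checked. Among the genes named in the report, calls lost with the replicate block included PLAUR at 4 weeks against control (2.61, adjusted p = 0.0633) and F3 between control aorta and myocardium (-0.81, adjusted p = 0.0702). Against control they included ITGAM at 4 and 7 weeks (adjusted p = 0.122 and 0.0809) and KLF2 at 7 weeks (adjusted p = 0.102). From 2 to 4 weeks they included F5, ITGAM and TBXAS1 (adjusted p = 0.114, 0.0905 and 0.0527). PTGIS between control valve and aorta was also lost (adjusted p = 0.0601). Called members went from 1 to 0 at 4 weeks against control with the replicate block, with the cardiomyocyte score and in the 2 groups alone, and from 1 to 0 in the 2 groups alone from 2 to 4 weeks, where DESeq2 called 2. They went from 0 to 1 with DESeq2 in aorta and, for the valve minus myocardium diet effect, with DESeq2 and with voom, which called 1 each. The cause was not tested.

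Signs turned as follows. From 4 to 7 weeks PLAT was 0.044 with the replicate block, 0.071 with the cardiomyocyte score and 0.0027 in the 2 groups alone, and PLAU was 0.18 with that score. With the same score PLAUR at 2 weeks against control was -0.065 and THBD from 2 to 4 weeks -0.041. THBD for the valve minus myocardium effect was -0.087 with the replicate block and -0.017 with voom.

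Leaving out 1 library at a time gave 1 to 2 called members at 7 weeks against control, 0 to 2 at 4 weeks and 0 to 1 in aorta. Against control at 7 weeks PLAT ranged from -0.34 to 0.044 and THBD from -0.0053 to 0.27. At 4 weeks PLAT ranged from -0.52 to 0.066, F3 from -0.45 to 0.0074 and TFPI from -0.33 to 0.14. At 2 weeks PLAU ranged from -0.22 to 0.0011. From 4 to 7 weeks PLAU ranged from -0.28 to 0.13, PLAT from -0.22 to 0.29 and TFPI from -0.52 to 0.014. From 2 to 7 weeks PLAT ranged from -0.044 to 0.35, and from 2 to 4 weeks PLAT from -0.12 to 0.39 and THBD from -0.051 to 0.24. In aorta PLAT ranged from -0.41 to 0.024 and THBD from -0.33 to 0.26. In myocardium PLAT ranged from -0.13 to 0.29, F3 from -0.51 to 0.39, THBD from -0.10 to 0.42 and TFPI from -0.12 to 0.33. Between control tissues F3 ranged from -0.56 to 0.11 for valve minus myocardium, and for aorta minus myocardium PLAU from -0.32 to 0.060 and PLAT from -0.47 to 0.039. THBD for the valve minus myocardium effect ranged from -0.25 to 0.24.

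Counts over all genes moved more. Against the 4, 319 and 1245 genes called at 2, 4 and 7 weeks against control, DESeq2 called 965, 771 and 2222, the replicate block 0, 5 and 663, the cardiomyocyte score 0, 0 and 1527, and the 2 groups alone 431, 2 and 897. Of 697 from 2 to 4 weeks DESeq2 called 1507, the block 264, the score 385 and the 2 groups alone 196. Of 16 from 4 to 7 weeks DESeq2 called 208, the block 10 and the 2 groups alone 2. From 2 to 7 weeks the score took 4261 to 443. In aorta 23 became 408 with DESeq2 and 96 with the block, in myocardium 12 became 308 with DESeq2 and 76 with no filter, and for the valve minus myocardium effect 68 became 548 with DESeq2, 229 with voom and 0 with the block. Without 1 library the counts ran from 0 to 515, 0 to 791 and 445 to 2261 at 2, 4 and 7 weeks against control, 207 to 1225 from 2 to 4, 4 to 49 from 4 to 7 and 2626 to 5608 from 2 to 7 weeks, 2 to 284 in aorta, 1 to 36 in myocardium, 5 to 142 for the valve minus myocardium effect, and 1795 to 3356 for control valve against aorta, where all libraries gave 3397. PLAUR, with 13 to 316 reads in valve and fewer in the other tissues, is the member whose precision depth limits most.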
